A study of Mus musculus with 6 samples.

Results

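Ugcg and 9 further enzymes of sphingolipid synthesis and breakdown were described in CD4+ CD25+ T cells from mice that lack Keap1 in blood-forming cells. The 10 genes were chosen by name as steps of this pathway, with earlier results of this comparison of genotypes already known. Each of the 10 was measured by 1 transcript cluster (the set of probes that the array summarises into 1 value), and no cluster was shared with another gene. All 10 lay among the 16825 genes tested, so no enzyme was lost to the filter on dim clusters.

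The cells were isolated magnetically from the spleens of untreated male C57BL/6 mice, and CD4 together with CD25 on the surface marks regulatory T cells (Treg cells). The group Keap1_KO (labelled Keap1 -/-, arrays B, C and D) came from mice in which a floxed Keap1 gene is removed by Cre under the Vav promoter, and the group WT (labelled Keap1 +/+, arrays A, D and F) from the matching wild type. Vav-driven Cre acts throughout the blood lineages, so the deletion is not limited to Treg cells. The labels do not say whether the WT mice carry Cre, or whether each array is a separate mouse, and p-values therefore measure the spread between arrays, part of which may be technical. The sample characteristics give an age of 10 to 12 months and the growth protocol 6 to 10 weeks. The series title writes CD4-, whereas the sample labels give CD4+, the name used here.

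Sphingolipids are built on a long-chain base. Serine palmitoyltransferase joins serine to a fatty acid in the first step, ceramide synthases attach the second fatty chain, and ceramide is then turned into sphingomyelin or, with a glucose from Ugcg, into glucosylceramide, the base of lactosylceramide and the gangliosides. Lysosomal hydrolases take these lipids apart again, and the sphingosine released can be phosphorylated into a signal that guides lymphocytes out of lymphoid tissue. Glycosphingolipids are found in the T cell membrane, in the ordered regions where receptors gather.

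Values are deposited log2 values, differences are Keap1_KO minus WT on that scale, and errors are SDs over 3 arrays unless an SE is named. Where 3 values are given for a genotype, they stand in the order A, D, F for WT and B, C, D for Keap1_KO. Keap1, the targeted gene, read 5.30, 5.41 and 5.77 in WT and 4.87, 4.89 and 4.70 in Keap1_KO. It was dim, at or above its array's median on 2 of 6 arrays. Nqo1, a standard target of the NRF2 factor that KEAP1 holds down, read 4.68, 4.69 and 5.03 in WT and 8.50, 7.55 and 9.14 in Keap1_KO. Correlations across the genes tested ran from 0.958 to 0.983 between arrays of a genotype and from 0.927 to 0.988 between genotypes, so the closest arrays were of opposite genotype. By limma with Benjamini-Hochberg adjustment, 0 of the 16825 genes (0%) passed an adjusted p of 0.05. Before adjustment, 1410 genes were higher in Keap1_KO at p under 0.05 and 323 were lower, and 81.4% of these calls were thus higher. Centring each array on its median gave a share of 92.5% and moved the median difference of all genes tested from 0.06 to 0.17.

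Ugcg, which encodes the glucosylceramide synthase that commits ceramide to glycosphingolipids, was lower in the Keap1_KO cells. It read 11.53, 11.27 and 11.45 in WT and 10.73, 9.29 and 9.38 in Keap1_KO. The groups did not overlap, and Keap1_KO C and D lay well below array B. The difference was -1.62 (SE 0.40), 3.07-fold on the deposited scale, and 20 of the 16825 genes tested had a larger difference in the lower direction. These values chose the gene and are a description. The WT arrays were close together (11.42 ± 0.13), whereas the Keap1_KO arrays spread more widely (9.80 ± 0.81). Without Keap1_KO B the difference was -2.08, and without Keap1_KO C it was -1.36.

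**Figure D1:**
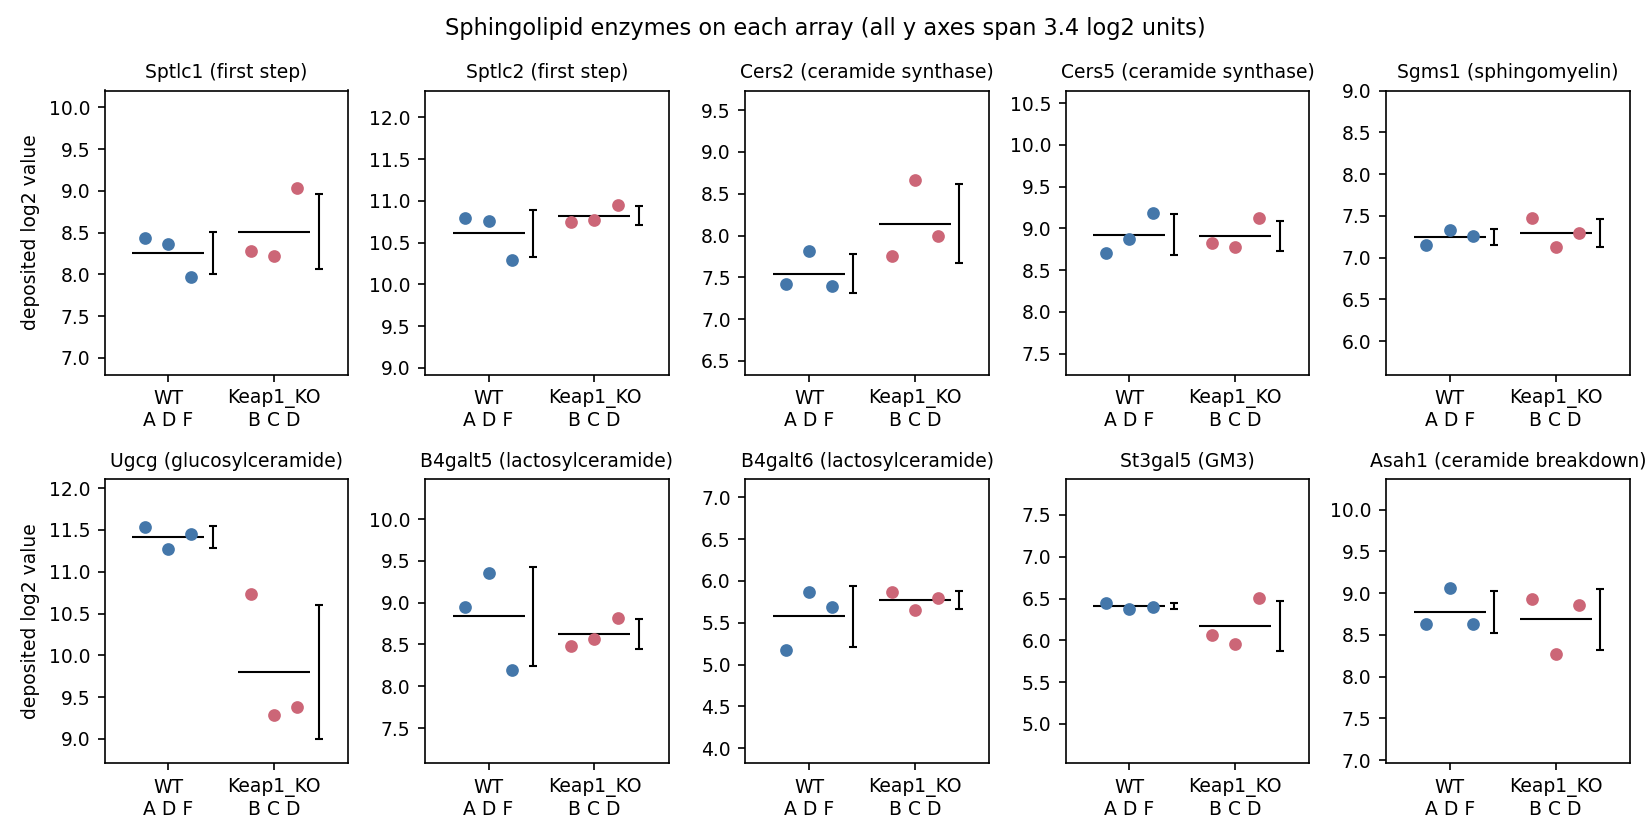
Deposited log2 value (y axis) of each of the 10 enzymes on the 3 WT arrays (blue, A, D and F from left to right) and the 3 Keap1_KO arrays (red, B, C and D). Horizontal lines are group means and bars are SDs over 3 arrays. Only for Ugcg (11.42 ± 0.13 and 9.80 ± 0.81) did the groups not overlap.

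The sequence before the Ugcg gene is shown because the study removes the inhibitor of NRF2 and Ugcg differed most among these enzymes. It is the RefSeq sequence of build GRCm38.p6, chr4:59189300-59189506 on the plus strand, 207 bases that end just before the earliest annotated start of the gene, with a match to the core of the antioxidant response element (TGACNNNGC, the motif NRF2 binds) in capitals.
Ugcg: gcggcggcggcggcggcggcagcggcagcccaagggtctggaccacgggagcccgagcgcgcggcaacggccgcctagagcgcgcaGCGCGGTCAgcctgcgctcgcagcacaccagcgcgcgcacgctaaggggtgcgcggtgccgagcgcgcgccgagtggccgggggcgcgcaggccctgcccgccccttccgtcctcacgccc
The match lies on the minus strand, where it reads TGACCGCGC, and its last printed base is 113 bases before that start. On either strand, the motif occurs in 12.4% of 32851 RefSeq promoter windows of 300 bases (250 before and 50 after a start). Of the 8 enzymes with a window in that table, 1 (Ugcg) had a match, and B4galt6 and Asah1 had no window. Of 62 other sphingolipid genes with a window, 6 had a match (Cers3, Galc, Hexa, Mfsd2b, Psap and Sphk1). The first share is near the 12.4% of all windows and the second is under it, so no reading follows from these counts. The Ugcg window was also rich in G and C (81.3%, against a median of 52.7% over all windows), and 0.654% of windows had as much or more. A match is a description of the letters, and binding was not measured here.

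For the enzymes after Ugcg the arrays of the genotypes overlapped. B4galt5, which encodes the main lactosylceramide synthase in many tissues, read 8.95, 9.36 and 8.20 in WT and 8.48, 8.57 and 8.82 in Keap1_KO. The Keap1_KO values lay inside the WT range, and the difference was -0.21 (SE 0.31). It was -0.53 without WT F and 0.05 without WT D. Its relative B4galt6 was dim, with 5.17, 5.87 and 5.69 in WT and 5.87, 5.65 and 5.80 in Keap1_KO, a difference of 0.20 (SE 0.22) that was 0.00 without WT A and 0.34 without WT D. St3gal5, the GM3 synthase that opens the ganglioside series, read 6.45, 6.38 and 6.40 in WT and 6.06, 5.95 and 6.51 in Keap1_KO. Arrays B and C lay below WT and array D above it, and the difference was -0.24 (SE 0.20), with -0.41 without Keap1_KO D and -0.13 without Keap1_KO C. Of the 10 enzymes, 1 (Ugcg) had all Keap1_KO values below all WT values and 0 had all above. Over all genes tested the corresponding shares were 4.96% and 9.11%, and no reading follows from the count, because the genes were chosen on this contrast.

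The enzymes that make ceramide gave smaller differences than Ugcg. Sptlc1 and Sptlc2 encode the subunits of serine palmitoyltransferase. Sptlc1 read 8.43, 8.36 and 7.97 in WT and 8.28, 8.22 and 9.03 in Keap1_KO, and its difference of 0.26 (SE 0.27) was 0.00 without Keap1_KO D, 0.11 without WT F and 0.40 without Keap1_KO C. Sptlc2 read 10.79, 10.76 and 10.29 in WT and 10.75, 10.77 and 10.95 in Keap1_KO, a difference of 0.21 (SE 0.20) in which WT F was the low array, and 0.05 without it. Ceramide synthases differ in the fatty chain they attach. Cers2, which favours very long chains, read 7.42, 7.81 and 7.40 in WT and 7.76, 8.67 and 8.0 in Keap1_KO. Its difference of 0.60 (SE 0.28) was the largest after that of Ugcg, and Keap1_KO B lay below WT D. The difference was 0.34 without Keap1_KO C. Cers5, which favours palmitoyl chains, read 8.71, 8.87 and 9.19 in WT and 8.83, 8.78 and 9.12 in Keap1_KO, a difference of -0.01 (SE 0.20) that was 0.10 with centred arrays and ran from -0.12 to 0.12 when each array was left out.

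The remaining branches lay close to zero difference. Sgms1, the sphingomyelin synthase of the Golgi, competes with Ugcg for ceramide. It read 7.15, 7.33 and 7.26 in WT and 7.47, 7.13 and 7.29 in Keap1_KO, a difference of 0.05 (SE 0.17) that ran from -0.04 to 0.13 when each array was left out. Asah1, the lysosomal acid ceramidase and the only breakdown enzyme among the 10, read 8.63, 9.06 and 8.63 in WT and 8.93, 8.27 and 8.86 in Keap1_KO. Its difference was -0.09 (SE 0.24), 0.03 with centred arrays, and from -0.21 to 0.12 when each array was left out. Set side by side, the 9 synthesis enzymes had a median difference of 0.05, with 5 higher and 4 lower means, against -0.09 for Asah1 and 0.06 for all genes tested.

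A wider set of 74 sphingolipid genes, also chosen with earlier results of these data known, was examined in the same fit. Of these, 62 had a cluster of their own and 44 were tested; 8 were on clusters shared with another gene, 4 were not matched, and 18 lay under the filter. By limma, 0 of the 44 passed an adjusted p of 0.05 in either direction. Before adjustment, 5 of 44 (11.4%) were higher in Keap1_KO at p under 0.05, against 8.38% of all genes tested, and 2 (4.55%) were lower, against 1.92%. The groups did not overlap for 4 genes in each direction (9.09%, against 9.11% higher and 4.96% lower over all genes). The median difference of the 44 was 0.18. With centred arrays 8 genes rather than 5 were higher at unadjusted p under 0.05, and without WT F, Keap1_KO C or Keap1_KO D none was. The count over all genes tested moved in the same directions, from 1410 to 1776 of 16825 with centred arrays. It was 576 of 16593 without WT F, 441 of 16429 without Keap1_KO C and 413 of 16424 without Keap1_KO D.

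**Figure D2:**
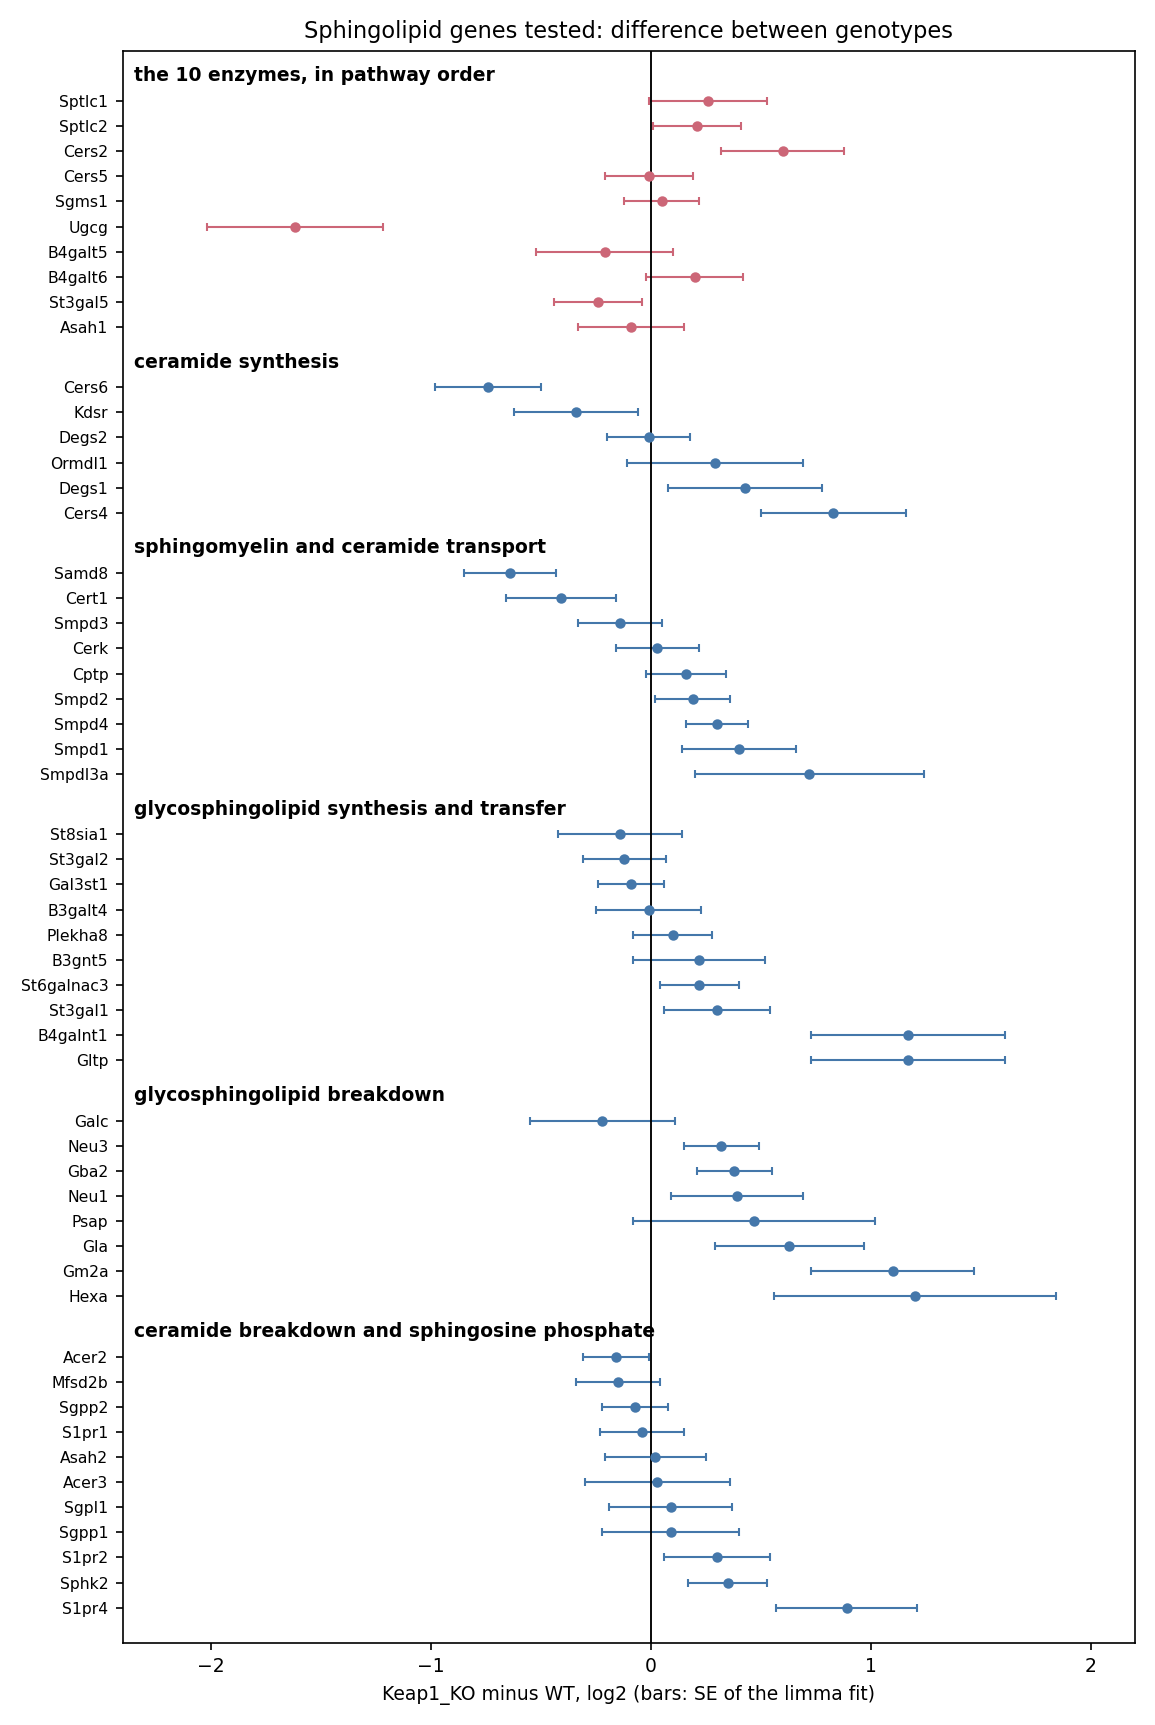
Difference between Keap1_KO and WT (x axis, log2 units) for the 10 enzymes (red) and the 44 further sphingolipid genes tested (blue, by list). Points are differences of means over 3 arrays each and bars are the SE of the limma fit. Ugcg (-1.62) is the lowest point, and Hexa (1.20), Gltp and B4galnt1 (1.17 each) are the highest.

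Among ceramide synthesis genes, the means of Cers6 and Cers4 differed in opposite directions. Cers6, which like Cers5 makes palmitoyl ceramide, read 9.37, 8.80 and 8.74 in WT and 8.54, 8.05 and 8.10 in Keap1_KO, so every Keap1_KO array lay below WT. The difference was -0.74 (SE 0.24, limma adjusted p = 0.476). Cers4 read 6.82, 7.40 and 7.03 in WT and 7.23, 8.23 and 8.28 in Keap1_KO, a difference of 0.83 (SE 0.33, limma adjusted p = 0.476), with Keap1_KO B below WT D. With array weights, both passed the adjusted threshold, at -1.08 and 1.21. So did Samd8 (-0.87), B4galnt1 (1.48), Gltp (1.65), Gm2a (1.45), Hexa (1.85) and S1pr4 (1.0), whose unweighted values follow. These 8 of the 44 stood beside 1880 of all 16825 genes tested that passed with array weights. The other 4 tested genes of ceramide synthesis lay between -0.34 (Kdsr, the reductase of the second step) and 0.43 (Degs1, which desaturates dihydroceramide into ceramide). The median of the 6 was 0.14.

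Genes of the sphingomyelin branch and of ceramide transport had a median difference of 0.16 over 9 tested. Samd8, which encodes a ceramide phosphoethanolamine synthase of the same family as Sgms1, read 9.02, 8.82 and 8.66 in WT and 8.51, 8.04 and 8.02 in Keap1_KO. Its groups did not overlap, and the difference was -0.64 (SE 0.21, limma adjusted p = 0.476). Smpd4, a neutral sphingomyelinase, read 6.33, 6.23 and 6.34 in WT and 6.59, 6.61 and 6.60 in Keap1_KO, a difference of 0.30 (SE 0.14, limma adjusted p = 0.479). Smpdl3a, a phosphodiesterase related to acid sphingomyelinase, differed by 0.72 (SE 0.52), with overlapping groups. Leaving out 1 array gave from 0.44 (without Keap1_KO D) to 1.25 (without Keap1_KO B), with 0.45 without WT F and 0.47 without Keap1_KO C. Cert1, the protein that carries ceramide to the sphingomyelin synthase, read 11.44 ± 0.17 in WT and 11.02 ± 0.43 in Keap1_KO.

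Later steps of glycosphingolipid synthesis included 2 of the highest differences in the pathway. B4galnt1, which extends GM3 into GM2 and so feeds the complex gangliosides, read 9.39, 9.60 and 9.10 in WT and 9.54, 10.91 and 11.15 in Keap1_KO. Arrays C and D lay above WT and array B inside it. The difference was 1.17 (SE 0.44, limma adjusted p = 0.476). Gltp, which encodes a cytosolic carrier of glycolipids, read 10.21, 11.17 and 10.31 in WT and 10.89, 12.24 and 12.09 in Keap1_KO, again with only array B inside the WT range, and differed by 1.17 (SE 0.44, limma adjusted p = 0.476). Gal3st1, the sulfatide synthase, lay lower on every Keap1_KO array, but by -0.09, which became 0.02 with repeated quantile normalization or centred arrays. The median of the 10 tested genes of this list was 0.16. Ugcg (-1.62) and B4galnt1, an early and a later enzyme of the ganglioside route, thus differed in opposite directions. St3gal5, a step between them, differed by -0.24 with overlapping groups. For both Ugcg and B4galnt1, arrays C and D lay farther from WT than array B.

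Genes of glycosphingolipid breakdown had the highest median of the 5 lists, 0.43 over 8 tested, with 7 higher means, where 56.5% of all genes tested had a higher mean. This list had 15 genes and held all 4 that were not matched. Hexa, the alpha subunit of the hexosaminidase that removes the terminal sugar of GM2, read 8.15, 9.01 and 8.14 in WT and 8.16, 10.26 and 10.49 in Keap1_KO. Array B lay at the WT level, and the difference was 1.20 (SE 0.64, limma adjusted p = 0.498). Gm2a, the activator protein that presents GM2 to this enzyme, read 8.63, 9.48 and 8.58 in WT and 9.35, 10.28 and 10.35 in Keap1_KO, with array B below WT D. It differed by 1.10 (SE 0.37, limma adjusted p = 0.476). The groups did not overlap for Gba2, the non-lysosomal glucosylceramidase that undoes the step of Ugcg (6.47 ± 0.15 and 6.85 ± 0.17), and for the sialidase gene Neu3 (6.24 ± 0.19 and 6.56 ± 0.10). Gla, the alpha-galactosidase, differed by 0.63, Psap, the precursor of the saposins, by 0.47, and Galc, the galactosylceramidase, by -0.22, all with overlapping groups. Without Keap1_KO B, the difference of Hexa was 1.94 (limma adjusted p = 0.0457) and that of B4galnt1 1.67 (0.0385). These were the only 2 genes of the 44 to pass there, where 575 of all 16535 genes tested passed. For both genes the array left out lay within the WT range. Without Keap1_KO D the difference of Hexa was 0.78.

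**Figure D3:**
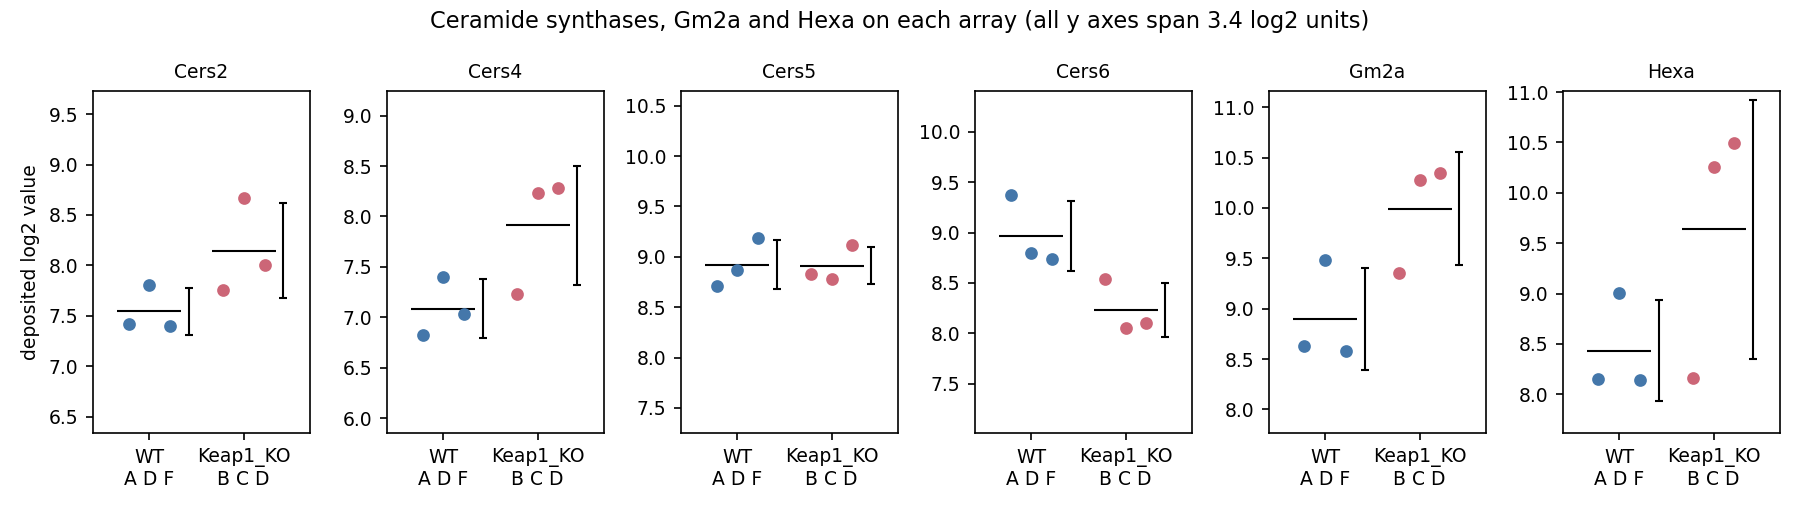
Deposited log2 value (y axis) of 4 ceramide synthase genes, Gm2a and Hexa on each array, with WT A, D and F in blue and Keap1_KO B, C and D in red. Lines are means and bars are SDs over 3 arrays. Cers6 is lower on all Keap1_KO arrays (8.23 ± 0.27 against 8.97 ± 0.34), whereas for Cers4, Gm2a and Hexa arrays C and D are high and array B lies within the WT range.

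Genes of ceramide breakdown and sphingosine phosphate had a median of 0.03 over 11 tested. S1pr4, a sphingosine phosphate receptor of lymphoid cells, read 8.55, 8.62 and 8.12 in WT and 8.73, 9.38 and 9.84 in Keap1_KO, above WT on every array. The difference was 0.89 (SE 0.32, limma adjusted p = 0.476). S1pr1, the receptor that draws lymphocytes into blood and lymph, read 11.17 ± 0.09 and 11.13 ± 0.28. The sphingosine kinase gene Sphk2 differed by 0.35 (SE 0.18) with overlapping groups. Acer2, an alkaline ceramidase of the Golgi, lay lower on every Keap1_KO array by a difference of -0.16, which was -0.05 with centred arrays. Sgpl1, the lyase that destroys sphingosine phosphate, differed by 0.09, as did the phosphatase gene Sgpp1.

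Marker lists of the isolated cells and of other cells also differed between arrays. Averages were taken over markers with a cluster of their own. These were 10 of 12 listed for Treg cells, 8 of 10 for CD4 T cells and 12 of 13 for macrophages. They were 9 of 10 each for B and NK cells and 3 of 9 for erythroid cells. For the remaining types all listed markers were used. The 10 Treg markers averaged 10.87 to 11.23 on the WT arrays and 11.39, 12.20 and 12.22 on the Keap1_KO arrays. Of the 10, 7 had higher means in Keap1_KO. The 8 markers of CD4 T cells averaged 13.91 to 14.45 in WT and 14.25 to 15.26 in Keap1_KO, with all 8 higher. Ugcg was thus lowest on Keap1_KO C and D, where the averages of these 2 lists were highest, but they were not alone in this. The averages of neutrophil, plasma cell and CD8 T cell markers were also highest on those arrays. For plasma cells the margin was small, with 8.10 on Keap1_KO C against 8.07 on WT D. Those of macrophage, B cell, NK cell, dendritic cell and erythroid markers were not above WT on both. The 15 neutrophil and granulocyte markers averaged 7.27 to 8.32 in WT and 7.37, 8.96 and 10.88 on the Keap1_KO arrays, with 13 of 15 higher. The 12 macrophage and monocyte markers averaged 5.65 to 6.25 in WT and 6.04 to 6.54 in Keap1_KO, 7 of 12 were higher, and Cd14, Fcgr1 and C1qa lay below the array median on all 6 arrays. The ranges in WT and Keap1_KO were 6.13 to 7.92 and 6.62 to 8.01 for B cell markers, 7.19 to 8.07 and 7.34 to 8.94 for plasma cells, and 7.02 to 9.15 and 8.05 to 9.73 for NK cells. They were 6.34 to 7.79 and 6.67 to 8.38 for the 2 CD8 T cell markers, and 5.89 to 6.57 and 6.28 to 6.91 for dendritic cells. For the 3 erythroid markers with a cluster of their own they were 5.93 to 6.36 and 5.98 to 6.18. The part of these cells in the values of Ugcg and the other sphingolipid genes was not tested, and in such bulk samples fewer cells of a type and less RNA per cell cannot be told apart.

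**Figure D4:**
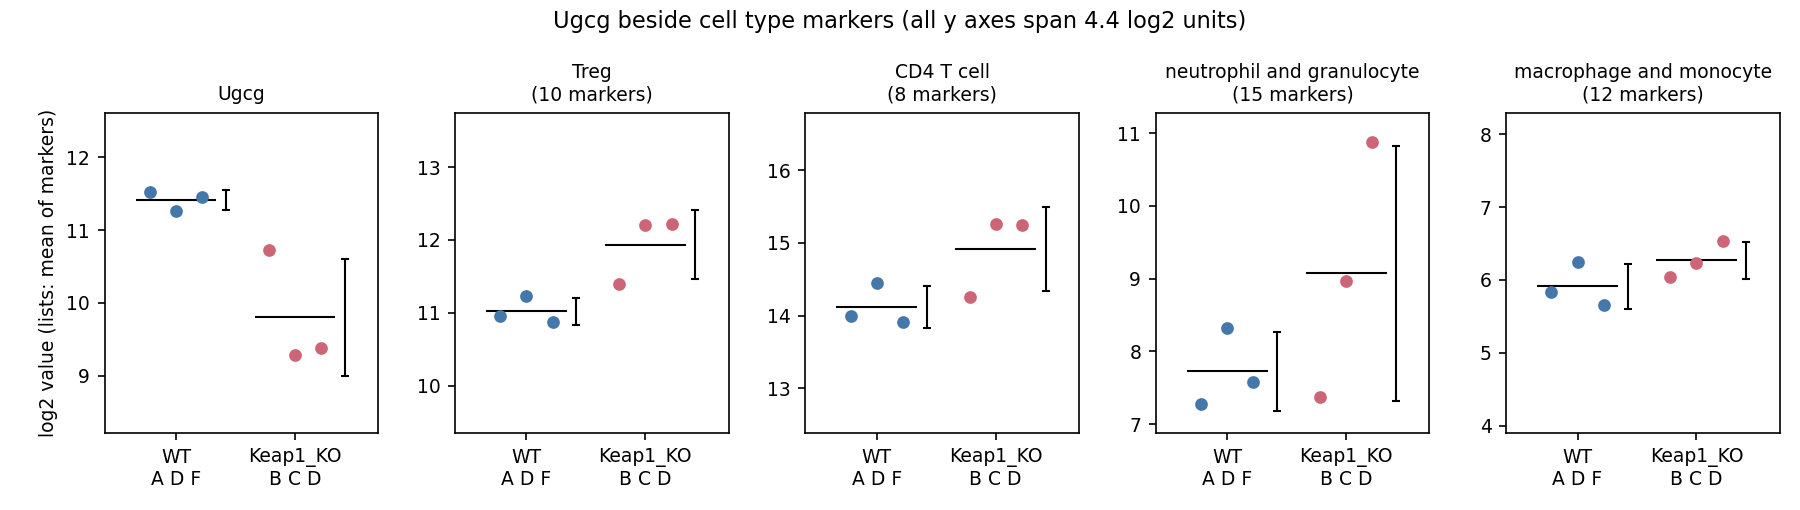
Ugcg (left, deposited log2 value) beside the mean log2 value of markers of 4 cell types on each array. Only markers with a cluster of their own are used. WT A, D and F are blue and Keap1_KO B, C and D are red. Lines are means and bars are SDs over 3 arrays. On Keap1_KO C and D, where Ugcg is lowest, Treg markers reach 12.20 and 12.22 and neutrophil markers reach 8.96 and 10.88.

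The genes whose profile lay nearest to that of Ugcg were Lcor, Rbm15, Sec24a, Nufip2, Ikzf3 and Utrn. Nearness was the root-mean-square difference over the 6 arrays between log2 values centred on each gene's mean, among 10996 protein-coding genes tested, and it ran from 0.31 for Lcor to 0.36 for Utrn. Lcor, a ligand-dependent corepressor gene, read 11.37, 11.20 and 11.44 in WT and 11.15, 9.93 and 9.88 in Keap1_KO, a difference of -1.02. Ikzf3, the gene of the lymphoid transcription factor Aiolos, read 10.83, 10.34 and 10.76 in WT and 10.56, 9.14 and 9.42 in Keap1_KO, a difference of -0.94. All 6 neighbours were low on arrays C and D, which follows from choosing them by nearness to Ugcg. Their differences lay between -1.12 and -0.94, smaller than that of Ugcg, which only 20 of the 16825 genes tested exceeded in the lower direction. On array B, Sec24a, Ikzf3 and Utrn lay within the WT range, whereas Ugcg lay below it. With Pearson correlation as the measure, 0 of the 6 stayed among the nearest 6, and Fchsd2 was the nearest gene. With centred arrays all 6 stayed.

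**Figure D5:**
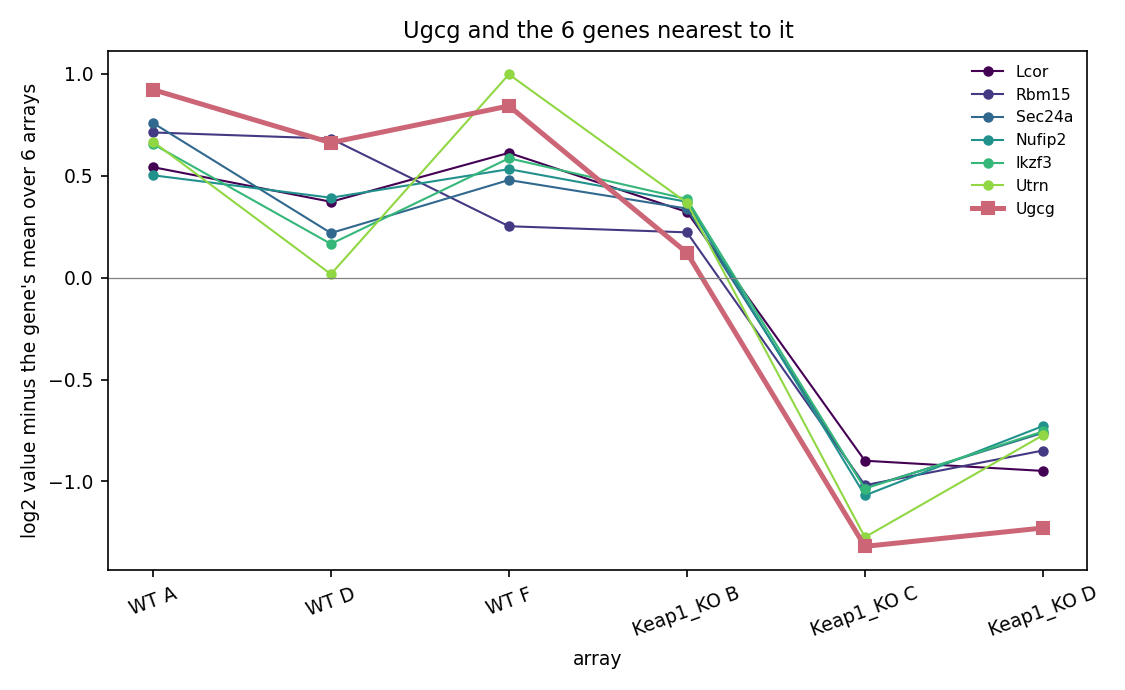
Log2 value minus the gene's mean over 6 arrays (y axis) on each array (x axis) for Ugcg (thick red line) and the 6 nearest protein-coding genes (thin lines). All 7 lines are low on Keap1_KO C and D, which follows from choosing the 6 by nearness to Ugcg. Of the 7, Ugcg has the largest difference between genotypes (-1.62, against -1.12 to -0.94).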

How the data were processed

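The authors deposited log2 values of 65528 transcript clusters on 6 arrays. They used RMA, with Affymetrix Expression Console and Transcriptome Analysis Console, per the submitters' processing notes, which give no versions. For the genome build, the sources used here name none. Values ran from 1.88 to 19.93, above the 16 that a 16-bit scanner allows, so a rescaling that no source states lies behind them, and folds hold on the deposited scale. The number of arrays limits the precision.

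Clusters were named through the platform annotation (30354 with 1 symbol, 2118 with several, 33056 unnamed) and updated by Entrez identifier. A gene was tested if its cluster reached its array's median on at least 3 of 6 arrays, and the brightest cluster stood for a gene. Limma 3.58.1 in R 4.3.3 (lmFit, eBayes, tested on simulated data) compared the genotypes, two-sided, with Benjamini-Hochberg adjustment over all 16825 genes. Promoter windows were taken from RefSeq.

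The 10 enzymes and all lists were chosen with earlier results of these data known, so the 10 received no test. Of the wider lists, genes with unadjusted p under 0.05, with groups that do not overlap, or with the 2 largest differences in a list were named, and others are named as background. The alternatives were no or a stricter filter, repeated quantile normalization, centred arrays, array weights, a robust trended variance prior, averaged clusters and leaving out each array.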

Additional observations from a re-analysis of the deposited data

How the results depend on the processing

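The difference of Ugcg stayed between -2.08 and -1.36 over 13 alternatives. Of the 10 enzymes, 4 (Ugcg, Cers2, Sptlc2 and St3gal5) kept their sign in all of them, as did 14 of the 15 further genes named by rule and tested, the exception being Gal3st1. No paired analysis was possible because the genotypes share only the replicate letter D. Genes past an adjusted p of 0.05, 0 as reported, numbered 1880 with array weights and 1 with the robust trended prior. They ranged from 0 to 575 when each array was left out, with 575 without Keap1_KO B. The corresponding counts among the 44 sphingolipid genes were 8 with array weights and 0 to 2 when each array was left out. At unadjusted p under 0.05 and over 16825 genes, array weights gave 4181 higher and 1716 lower. Repeated quantile normalization gave 1265 higher and 207 lower, and centred arrays 1776 higher and 144 lower. No filter gave 904 lower, but over 30024 genes tested. Leaving out each array gave 413 to 3373 higher and 117 to 1140 lower. Among the 44, array weights gave 12 higher and centred arrays 8, and leaving out each array gave 0 to 8 higher and 0 to 3 lower. Of the 6 genes nearest to Ugcg, 0 were shared with the nearest 6 by Pearson correlation. The cause of these shifts was not tested.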

Other observations

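Some sphingolipid genes could not enter the comparison because their cluster is shared or dim. The cluster that Glb1, the gene of lysosomal beta-galactosidase, shares with Tmppe read 7.97, 7.79 and 7.61 in WT (A, D, F) and 8.24, 9.16 and 9.27 in Keap1_KO (B, C, D), so every Keap1_KO array lay above WT. The cluster that Ormdl2, a regulator of serine palmitoyltransferase, shares with Gm5553 read 8.61, 8.77 and 7.99 in WT and 8.74, 9.24 and 9.51 in Keap1_KO. The bright cluster that Sptssa, a small subunit of that enzyme, shares with Mir1892 read 13.39 ± 0.65 in WT and 13.22 ± 0.21 in Keap1_KO. Sgms2, the sphingomyelin synthase of the plasma membrane, reached its array's median on 2 of 6 arrays, with 4.97, 5.15 and 5.21 in WT and 5.30, 5.39 and 6.55 in Keap1_KO. Another 16 genes reached the median on no array, with differences from -0.31 (Sptssb) to 0.22 (Plpp3). Of these 16, 2 lay lower on every Keap1_KO array, Acer1 (4.47 ± 0.08 and 4.25 ± 0.14) and St6galnac5 (4.87 ± 0.09 and 4.71 ± 0.07), and 0 lay higher on every one. Over all genes tested, which exclude such dim genes, the shares were 4.96% lower and 9.11% higher. The array medians themselves were 5.32, 5.31 and 5.43 in WT and 5.31, 5.25 and 5.16 in Keap1_KO, so no reading follows from these small differences.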
